A study of Mus musculus with 6 samples.

Results

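The mitochondrial Slc25 carriers were defined as all genes read by at least 1 probe set whose only gene symbol in the array annotation starts with Slc25a followed by a digit. The rule used no measured value and found 44 genes, read by 93 probe sets, among 18193 genes with a symbol of their own. A gene was represented by its brightest probe set (by the mean of all 6 arrays), and was tested where the signal reached log2 5 on at least 1 array. This left 34 of the 44 carriers among 9545 tested genes.

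The samples were resting natural killer cells (NKC) from the spleen, freshly isolated from ICR mice aged 6 weeks and read on 1 Affymetrix mouse array each. Of the 6 samples, 3 came from Runx3-/- mice, which lack the transcription factor Runx3, and 3 from wild-type (WT) mice. All were enriched by negative selection and then sorted for DX5, the integrin subunit CD49b, which some blood cells other than NKC also carry. The design text states that each sample came from 1 mouse, whereas the sex label of every sample is "male and female", and the labels name no Cre driver or other allele. The question was which transcripts differ when Runx3 is missing. Values are log2 signals after GC-RMA, a method that removes a background modelled on base content and brings the arrays to a common distribution.

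The inner mitochondrial membrane is closed to most metabolites, and the SLC25 family supplies most of its exchangers. A carrier is a small protein built from a repeated pair of membrane helices, which opens alternately to the intermembrane space and to the matrix and so swaps ADP for ATP, or imports phosphate, carboxylates, amino acids, nucleotides, cofactors or iron. The proteins are encoded in the nucleus and enter the membrane through a dedicated import route, and some relatives sit elsewhere, such as Slc25a17 in peroxisomes and Slc25a46 in the outer membrane.

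Loss of Runx3 left most carriers within 1.5-fold of WT (29 of 34 tested, 85.3%), as it did most genes (78.6% of all tested). At the thresholds the study applied, a difference of 1.5-fold or more together with an unadjusted p under 0.05, 3 carriers were lower in Runx3-/- NKC and 0 were higher: Slc25a15, the ornithine carrier, Slc25a33, a pyrimidine nucleotide carrier, and Slc25a4, an ADP/ATP carrier. They made up 8.82% of the tested carriers, whereas 13.8% of all tested genes met the thresholds (8.86% lower and 4.89% higher), so the share of the carriers did not exceed the background. The balance of directions over all genes depended on scaling, with 467 higher and 846 lower on the deposited values, 627 and 498 with arrays centred on their medians, and 571 and 609 with quantile normalization. None of the carriers passed a Benjamini-Hochberg adjusted p under 0.05 in limma, a criterion met by 0.608% of all tested genes. An unadjusted p under 0.05 was found for 4 carriers, against 16.0% of all genes. The groups did not overlap in 8 carriers, 7 lower and 1 higher, which is 23.5% of those tested, against 22.8% of all genes. The carriers had a median log2 change of -0.18 (quartiles -0.36 and 0.08), beside -0.13 over all genes, and with arrays centred on their medians these were -0.05 and -0.01. Of the carriers, 67.6% had a negative change, as had 62.2% of all genes.

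**Figure D1:**
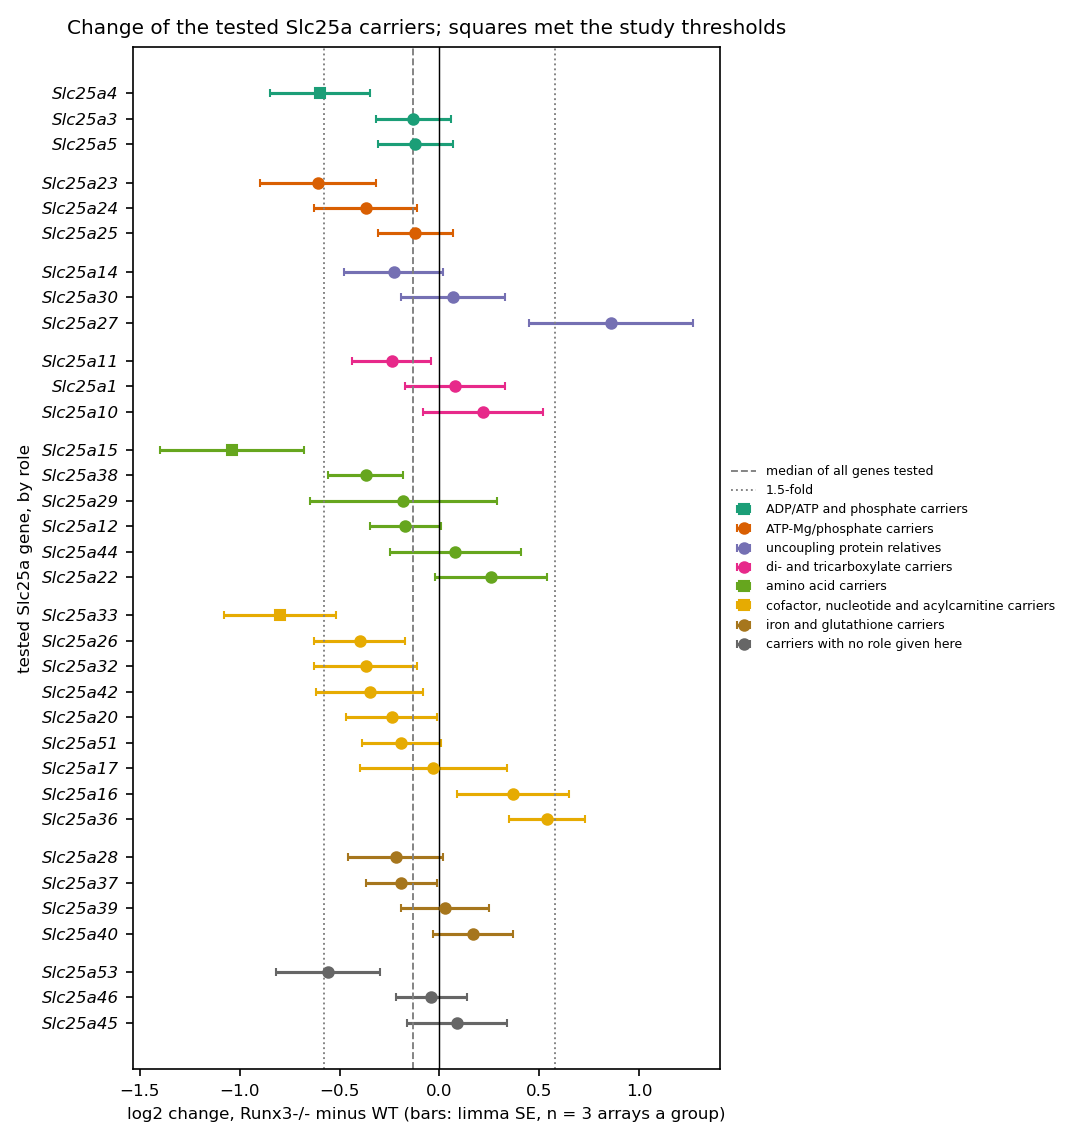
Log2 change, Runx3-/- minus WT (horizontal axis), of the 34 tested Slc25 carriers, grouped by role, with bars for the limma standard error. Squares mark the 3 carriers at the study thresholds, all lower; the dashed line is the median of all genes (-0.13) and dotted lines mark 1.5-fold.

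The targeted gene served as a check of the labels. Runx3 had log2 signals of 7.76, 8.51 and 8.68 in Runx3-/- NKC, against 10.11, 11.56 and 10.73 in WT, a 5.59-fold lower level (limma adjusted p = 0.0565). Between 17074 and 17771 probe sets per array reached log2 5, and arrays correlated at 0.950 to 0.974 within groups and 0.925 to 0.960 between them, over genes, which are not independent replicates. NK cell markers averaged 13.13 to 13.45 in Runx3-/- and 13.07 to 13.47 in WT. Basophil markers and cell cycle genes moved with genotype. Basophil and mast cell markers averaged 9.42 to 10.53 in Runx3-/-, against 8.04 to 8.52 in WT, with 8 of 11 higher at the study thresholds, and cell cycle genes 9.37 to 10.11, against 8.27 to 9.29, with 10 of 18 tested members higher. Of the B cell markers 2 of 8 tested were higher at the thresholds, Cd79a (5.51-fold, no overlap) and Ms4a1, and all 8 had positive changes. Cd79a was under log2 5 on all WT arrays, so it passed the filter only through Runx3-/- arrays. Of the macrophage markers 2 of 9 were higher, Adgre1 (3.63-fold, no overlap) and Cd14. Cd14 reached log2 5 on 1 Runx3-/- array only. For Cd79a and Cd14 the filter thus favoured a positive change, and the size of their changes is not read. Of the 7 neutrophil markers tested, Cxcr2 was higher (2.97-fold, no overlap) and Camp lower (6.2-fold, overlapping). WT replicate 3 read low in Ngp (8.63, 9.89 and 3.81 in WT) and Ltf (8.05, 7.63 and 2.81). The same held for S100a8 (10.33, 10.44 and 4.70), S100a9 (7.76, 7.83 and 2.48) and Camp (5.88, 7.56 and 2.45). It did not hold for Mpo (6.49, 10.17 and 7.71), and Cxcr2 read 5.23, 4.54 and 4.52. Camp reached log2 5 on 2 WT arrays only, so the filter favoured a negative change. The ranges of the list means overlapped for B cell markers (5.78 to 6.80 in Runx3-/- and 4.84 to 6.34 in WT), macrophage markers (4.39 to 8.21 and 5.60 to 5.63), T cell markers (5.36 to 5.89 and 5.43 to 5.88) and neutrophil markers (4.48 to 6.59 and 3.85 to 7.63). The part of all these markers in the carrier values was not tested, and in such sorted bulk samples fewer cells of a type and less RNA per cell cannot be told apart.

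Among the WT arrays, replicate 1 most often read lowest. It was the lowest WT array in 21 of the 34 carriers (61.8%, against 45.4% of all genes), replicate 2 in 11 (32.4%, against 29.3%) and replicate 3 in 2 (5.88%, against 25.4%). Runx3-/- replicates 1, 2 and 3 lay below every WT array in 18, 17 and 14 carriers (52.9%, 50% and 41.2%, against 33.2%, 40.3% and 38.8% of all genes). The counts of calls depended on single arrays. Without WT replicate 1, 5 carriers were lower and 1 was higher (17.6%, against 19.8% of all genes). Without WT replicate 3 there were 0 of either kind (against 10.2% of all genes), and without Runx3-/- replicate 1 there were 0 lower and 2 higher, Slc25a16 and Slc25a27 (5.88%, against 15.1%). Slc25a27 reached log2 5 on Runx3-/- arrays only, so the filter favoured a positive change.

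To show the regulatory sequence of the carriers with an unadjusted p under 0.05, the promoter windows of Slc25a33, Slc25a36, Slc25a15 and Slc25a4 were taken from RefSeq (GRCm38.p6), each from 250 bases before to 50 bases after an annotated start. Capitals mark a match to the core RUNX motif, searched on both strands as TGTGGT and as its variants TGTGGC, then TGCGGT, then TGCGGC. All 4 genes lie on the minus strand and are written 5′ to 3′ in the direction of transcription.
Slc25a33, chr4:149774218-149774517: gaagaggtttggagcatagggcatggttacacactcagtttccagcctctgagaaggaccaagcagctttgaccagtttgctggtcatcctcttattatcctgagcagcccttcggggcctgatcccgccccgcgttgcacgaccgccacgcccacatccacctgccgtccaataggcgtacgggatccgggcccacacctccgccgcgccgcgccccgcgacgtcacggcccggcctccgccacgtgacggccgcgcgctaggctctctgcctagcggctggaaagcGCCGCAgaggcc
Slc25a36, chr9:97110992-97111291: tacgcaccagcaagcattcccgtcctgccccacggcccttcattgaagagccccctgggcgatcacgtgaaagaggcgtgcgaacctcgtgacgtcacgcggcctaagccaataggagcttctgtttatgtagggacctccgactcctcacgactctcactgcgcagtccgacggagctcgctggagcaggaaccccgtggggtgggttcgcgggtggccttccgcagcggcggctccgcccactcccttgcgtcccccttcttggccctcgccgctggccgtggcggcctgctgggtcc
Slc25a15, chr8:22398228-22398527: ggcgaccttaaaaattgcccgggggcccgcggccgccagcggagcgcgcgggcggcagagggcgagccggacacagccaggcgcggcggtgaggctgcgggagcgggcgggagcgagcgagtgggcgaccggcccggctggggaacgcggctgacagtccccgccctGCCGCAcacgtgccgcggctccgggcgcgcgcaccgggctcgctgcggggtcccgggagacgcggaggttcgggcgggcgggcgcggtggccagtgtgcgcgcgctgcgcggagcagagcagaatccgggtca
Slc25a15, chr8:22398572-22398871: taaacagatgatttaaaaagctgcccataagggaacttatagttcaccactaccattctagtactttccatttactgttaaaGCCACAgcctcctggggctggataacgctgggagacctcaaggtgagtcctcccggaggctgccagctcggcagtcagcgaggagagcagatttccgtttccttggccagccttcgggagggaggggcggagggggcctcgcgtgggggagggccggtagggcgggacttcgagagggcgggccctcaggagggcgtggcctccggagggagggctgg
Slc25a4, chr8:46211013-46211312: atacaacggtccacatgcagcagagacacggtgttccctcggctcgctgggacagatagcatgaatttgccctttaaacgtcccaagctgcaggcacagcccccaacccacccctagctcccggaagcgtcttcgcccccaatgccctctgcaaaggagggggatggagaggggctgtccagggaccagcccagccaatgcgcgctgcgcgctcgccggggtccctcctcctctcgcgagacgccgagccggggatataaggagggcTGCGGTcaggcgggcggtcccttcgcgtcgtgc
The match lay at base 39 after the start in Slc25a33 and at base 18 in Slc25a4, and at -83 and -168 in the windows of Slc25a15, while the Slc25a36 window held none. Such matches are common: 45.2% of 32851 windows held at least 1 (16.8% for TGTGGT, 18.9% for TGTGGC, 6.45% for TGCGGT and 12.4% for TGCGGC), and so did 18 of the 43 windows (41.9%) found for 34 of the 44 carriers. A match of 6 letters is a description of the window and does not mark a bound site. The search and the choice of these genes were made after their values had been seen.

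The pyrimidine nucleotide carriers Slc25a33 and Slc25a36 bring pyrimidine nucleotides into the matrix, where mitochondrial DNA and RNA are made from them, and they differed in opposite directions. Slc25a33 had 10.02, 10.63 and 9.91 in Runx3-/- NKC, against 10.66, 10.97 and 11.32 in WT. All Runx3-/- arrays lay below all WT arrays, although Runx3-/- replicate 2 and WT replicate 1 were almost level. The means were 10.19 ± 0.38 and 10.98 ± 0.33 (SD, n = 3 each), a log2 change of -0.80 ± 0.28 (SE) or 1.74-fold lower (limma unadjusted p = 0.0213, adjusted p = 0.229). It no longer met the thresholds without Runx3-/- replicate 1 (change -0.71), Runx3-/- replicate 3 (-0.66) or WT replicate 3 (-0.63), and a single probe set measured it.

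Slc25a36 had 11.54, 11.45 and 11.46 in Runx3-/- NKC, against 11.08, 10.84 and 10.92 in WT. It was the only one of the 34 tested carriers that was higher with no overlap between the groups, and both groups were tight. The means were 11.48 ± 0.05 and 10.94 ± 0.12 (SD, n = 3 each). The change of 0.54 ± 0.19 (SE), 1.45-fold, stayed under the 1.5-fold threshold (limma unadjusted p = 0.0211, adjusted p = 0.229). It reached the threshold with arrays centred on their medians (0.66), with quantile normalization (0.64) and without WT replicate 1 (0.61). The unadjusted limma p rose above 0.05 with the mean of all probe sets (change 0.25). It also did so without Runx3-/- replicate 3 (0.55), WT replicate 2 (0.48) or WT replicate 3 (0.52). Dimmer probe sets of the gene gave less. One read 6.84, 6.86 and 6.80 in Runx3-/-, against 6.67, 6.67 and 6.41 in WT, a change of 0.25 with no overlap. The other read 6.06, 5.88 and 6.12, against 6.11, 6.44 and 5.60, a change of -0.03 with overlapping groups.

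Because both carriers were read on the same arrays, their log2 difference within an array does not depend on how the arrays were centred. Slc25a33 minus Slc25a36 was -1.52, -0.82 and -1.55 in Runx3-/-, against -0.42, 0.14 and 0.40 in WT. The Runx3-/- values lay below all WT values, and the shift was -1.34 (95% confidence interval -2.27 to -0.40). The exact two-sided permutation test gave p = 0.1, the smallest that 3 arrays against 3 allow, and 0.15 after adjustment over the 3 pairs compared. This contrast and those of the other pairs were chosen after the values of these genes had been seen, so the intervals describe the arrays and are not independent evidence.

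**Figure D2:**
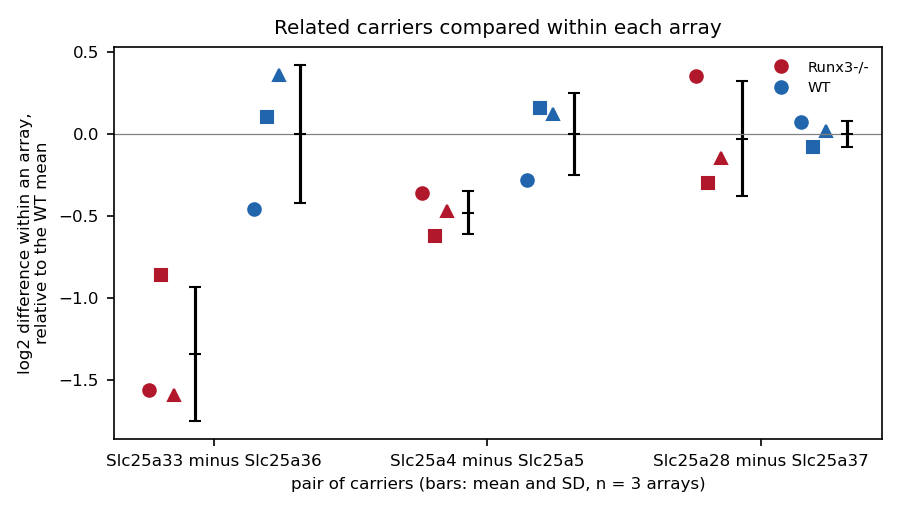
Log2 difference between the carriers of a pair within each array, relative to the WT mean of that pair (vertical axis), Runx3-/- left of WT. Circles, squares and triangles are replicates 1, 2 and 3, and bars give the mean and SD (n = 3). Slc25a33 minus Slc25a36 and Slc25a4 minus Slc25a5 were lower on every Runx3-/- array, while Slc25a28 minus Slc25a37 overlapped.

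The ADP/ATP and phosphate carriers feed the ATP synthase and export its product. Slc25a4, the isoform typical of heart and muscle, had 11.04, 10.70 and 11.15 in Runx3-/- NKC, against 11.15, 11.84 and 11.71 in WT. The groups were separated by the third decimal only, 11.151 in Runx3-/- replicate 3 and 11.155 in WT replicate 1. The means were 10.96 ± 0.23 and 11.57 ± 0.36 (SD, n = 3 each), a log2 change of -0.60 ± 0.25 (SE) or 1.52-fold lower (limma unadjusted p = 0.0458, adjusted p = 0.306). The call was lost in 10 of 18 alternatives, among them centring on the median (-0.48) and leaving out any array other than WT replicate 1. Other bright probe sets of Slc25a4 gave -0.53 and -0.57 with overlapping groups. Slc25a5, the isoform of dividing cells, had 13.65, 13.58 and 13.87 in Runx3-/-, against 13.69, 13.92 and 13.85 in WT, a change of -0.12 (adjusted p = 0.782) that was 0.00 after centring. Its 8 probe sets gave changes of -0.30 to 0.02. Slc25a4 minus Slc25a5 within arrays was -2.61, -2.87 and -2.72 in Runx3-/-, against -2.53, -2.09 and -2.13 in WT. The shift was -0.48 (95% confidence interval -0.93 to -0.04, exact permutation p = 0.1, adjusted 0.15), and -0.27 when each gene was read by its most variable probe set. Slc25a3, the phosphate carrier, had 13.04, 13.15 and 13.09, against 13.12, 13.37 and 13.17 in WT (change -0.13, adjusted p = 0.765). The mean of its 2 probe sets had the opposite sign (0.24). The dimmer set was under log2 5 on all arrays, at 4.55, 4.59 and 4.28, against 4.35, 3.38 and 3.89 in WT. Slc25a31, an ADP/ATP carrier of the testis, stayed at 2.86 to 3.08 in Runx3-/- and 3.02 to 3.17 in WT and was not tested.

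**Figure D3:**
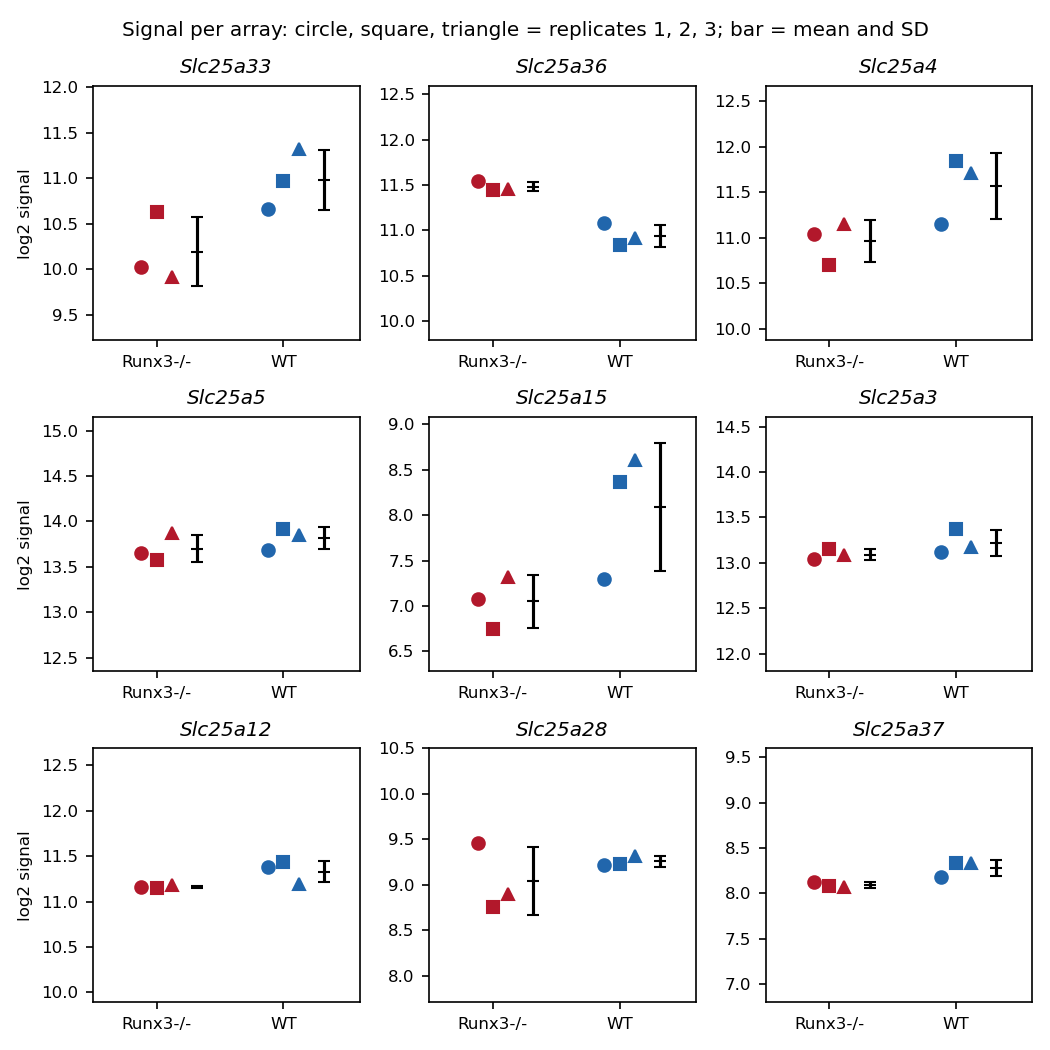
Log2 signal (vertical axis) of 9 named carriers on each array, Runx3-/- left of WT, with circles, squares and triangles for replicates 1, 2 and 3 and bars for the mean and SD. Slc25a33 and Slc25a4 lay lower on every Runx3-/- array and Slc25a36 higher, whereas Slc25a15 overlapped at WT replicate 1.

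Amino acid carriers link the matrix to the urea cycle, to redox shuttles and to heme synthesis. Slc25a15, which brings ornithine into the matrix, had 7.08, 6.75 and 7.32 in Runx3-/- NKC, against 7.30, 8.36 and 8.61 in WT. The groups overlapped, since WT replicate 1 read like the Runx3-/- arrays. The means were 7.05 ± 0.29 and 8.09 ± 0.70 (SD, n = 3 each), a change of -1.04 ± 0.36 (SE) or 2.05-fold lower (limma unadjusted p = 0.0223, adjusted p = 0.232). Without WT replicate 1 the change was -1.43 (limma adjusted p = 0.0553), and the call was lost without Runx3-/- replicate 1 (-1.05), Runx3-/- replicate 2 (-0.89), WT replicate 2 (-0.90) or WT replicate 3 (-0.78), and with the mean of its probe sets (-0.55). The other probe set of the gene read 2.38 to 2.51 in Runx3-/- and 2.47 to 2.56 in WT.

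The aspartate/glutamate carriers of the malate-aspartate shuttle were at unlike distances from background. Slc25a12 had 11.16, 11.15 and 11.18 in Runx3-/-, against 11.38, 11.43 and 11.19 in WT. The groups did not overlap, by a small margin at WT replicate 3, and the change was -0.17 (adjusted p = 0.676). Its most variable probe set, at log2 5 or more on only 3 arrays, gave 0.58, and another gave -0.38. The mean of its probe sets gave 0.01. Slc25a13 was under log2 5 on all arrays, at 4.72, 4.65 and 4.82, against 4.81, 4.81 and 4.83 in WT. Slc25a38, the glycine carrier of heme synthesis, was lower without overlap at 8.10, 8.39 and 8.41 in Runx3-/-, against 8.68, 8.60 and 8.73 in WT (change -0.37, adjusted p = 0.386). Slc25a22, a glutamate carrier, Slc25a29, a carrier of basic amino acids, and Slc25a44, a carrier of branched-chain amino acids, changed by 0.26, -0.18 and 0.08, all with overlapping groups. Slc25a29 was the most variable of the tested carriers in Runx3-/- (7.58, 6.69 and 5.78).

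Among the other cofactor and acylcarnitine carriers, the groups did not overlap in Slc25a26 and Slc25a51, and neither met the thresholds. Slc25a26, which imports the methyl donor S-adenosylmethionine, had 6.22, 6.16 and 6.44 in Runx3-/-, against 6.50, 6.48 and 7.04 in WT (change -0.40, adjusted p = 0.424). Slc25a51, the carrier of NAD, had 11.67, 11.61 and 11.64, against 11.71, 11.71 and 12.07 in WT (change -0.19, adjusted p = 0.666). Its bright probe sets gave -0.34 to 0.04. The changes were -0.37 for Slc25a32, a carrier tied to folate, -0.35 for Slc25a42, which carries coenzyme A, -0.24 for Slc25a20, the carnitine/acylcarnitine carrier, -0.03 for Slc25a17 and 0.37 for Slc25a16, each with overlapping groups.

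The mitoferrins import iron for heme and iron-sulfur clusters, Slc25a37 in developing red cells and Slc25a28 more widely. Slc25a28 had 9.46, 8.75 and 8.90 in Runx3-/- NKC, against 9.22, 9.23 and 9.32 in WT. The high value of Runx3-/- replicate 1 made the groups overlap, with a change of -0.22 (adjusted p = 0.672). Slc25a37 had 8.12, 8.08 and 8.07, against 8.18, 8.33 and 8.33 in WT. It was lower without overlap, by only -0.19 (adjusted p = 0.632). The difference Slc25a28 minus Slc25a37 shifted by -0.03 (95% confidence interval -0.60 to 0.53, exact permutation p = 0.9), an interval that leaves room for a difference of about 1.5-fold either way. Erythroid markers averaged 3.08 to 3.45 in Runx3-/- and 3.34 to 3.70 in WT, and 8 of the 10 listed, Hba-a1, Alas2 and Klf1 included, were under log2 5 on all arrays. The globin gene Hba-a2 was lower at the study thresholds, with 5.76, 4.81 and 5.43 in Runx3-/-, against 7.26, 6.42 and 6.40 in WT (2.57-fold, limma adjusted p = 0.137). The only other listed marker to reach log2 5, Slc4a1, overlapped, with 5.99, 3.45 and 4.27, against 5.67, 4.91 and 3.39 in WT (change -0.09). The part of red cell RNA in the Slc25a37 values was not tested. Slc25a39 and Slc25a40, which carry glutathione, changed by 0.03 and 0.17. Slc25a39 had 13.41, 12.84 and 13.15 in Runx3-/-, against 13.04, 13.05 and 13.21 in WT, with bright probe sets on both sides of 0 (-0.01 to 0.09).

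The ATP-Mg/phosphate carriers, regulated by calcium, all had negative changes, none at the thresholds. Slc25a23 had 5.12, 5.06 and 5.39 in Runx3-/-, against 5.21, 6.06 and 6.11 in WT. It overlapped at WT replicate 1 and changed by -0.61 (adjusted p = 0.347). It met the thresholds with array weights and without WT replicate 1. Slc25a24 changed by -0.37. Slc25a25 had 5.34, 5.29 and 5.29 in Runx3-/-, against 5.56, 5.28 and 5.43 in WT, a change of -0.12 (adjusted p = 0.778) that was 0.00 with arrays centred on their medians, while its other bright probe set gave 0.02. Among relatives of the uncoupling proteins, Slc25a27 was the only carrier to reach log2 5 on some arrays and not on others, at 4.59, 6.10 and 5.89 in Runx3-/-, against 4.89, 4.79 and 4.33 in WT. Runx3-/- replicate 1 read like WT, and the change of 0.86 did not meet the thresholds (adjusted p = 0.347). It did so without that array and with array weights. All WT arrays were under log2 5, so the gene entered the test only through Runx3-/- arrays. A filter passed in this way favours a positive change, and these calls are not read as a rise. Slc25a14 and Slc25a30 changed by -0.23 and 0.07.

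The citrate carrier Slc25a1, the dicarboxylate carrier Slc25a10 and the oxoglutarate/malate carrier Slc25a11 changed by 0.08, 0.22 and -0.24, with overlapping groups in each. Of carriers with no role given here, Slc25a53 had 11.51, 11.81 and 11.56 in Runx3-/-, against 11.72, 12.56 and 12.28 in WT, a change of -0.56 (adjusted p = 0.340) that overlapped at WT replicate 1, while a dimmer probe set gave 0.01. It was lower at the thresholds with array weights (-0.71) and without WT replicate 1 (-0.79). Slc25a46 had 10.81, 10.63 and 10.63, against 10.67, 10.78 and 10.74 in WT. Its change of -0.04 (adjusted p = 0.936) took a positive sign with arrays centred on their medians (0.08), with quantile normalization (0.07) and on its other probe set (0.06). Slc25a45 changed by 0.09.

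The 10 carriers that stayed under log2 5 on all arrays were Slc25a2, Slc25a13, Slc25a18, Slc25a31, Slc25a34, Slc25a35, Slc25a41, Slc25a47, Slc25a48 and Slc25a54. Their values ranged between 1.91 and 4.88, and their differences are not read, including that of Slc25a35, which was higher without overlap at 4.88, 4.42 and 4.70 in Runx3-/-, against 4.04, 4.39 and 4.20 in WT. The replicate spread of the tested carriers had a median SD of 0.24 in Runx3-/- (0.01 to 0.90) and 0.25 in WT (0.06 to 0.76). Of the carriers, 14 had more than 1 probe set at log2 5 or more on all arrays. In 7 of these the probe sets had changes of opposite sign, and in 0 they differed by over 1.5-fold. In a fit over probe sets, 2 of the 65 tested carrier probe sets met the study thresholds, against 12.9% of 16521 probe sets. The brightest set of Slc25a4 missed them there, with an unadjusted limma p of 0.0503.

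**Figure D4:**
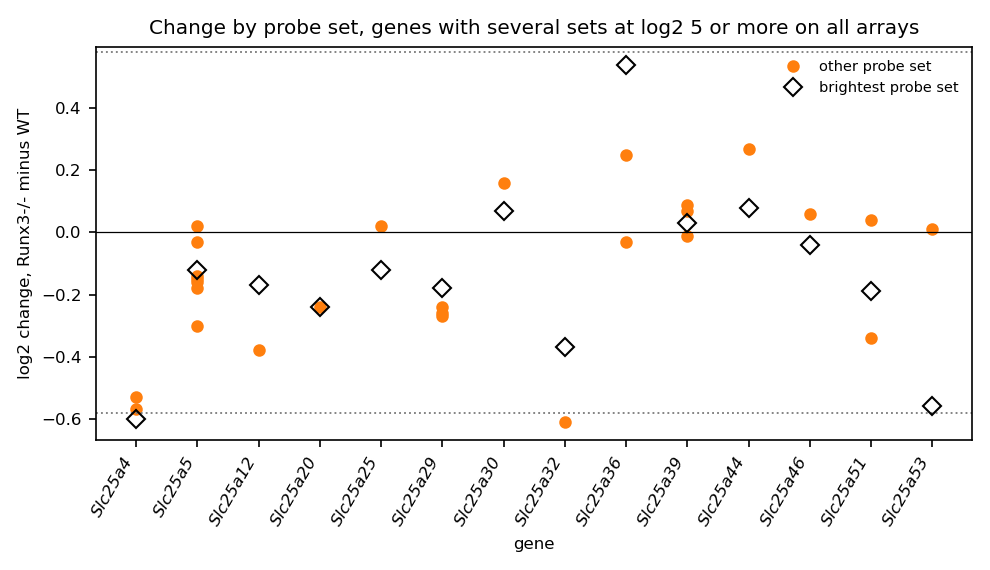
Log2 change, Runx3-/- minus WT, of every probe set at log2 5 or more on all arrays for the 14 carriers with several, with open diamonds for the brightest set, filled circles for the others and dotted lines at 1.5-fold. Probe sets of Slc25a36 ranged from -0.03 to 0.54 and those of Slc25a5 from -0.30 to 0.02.

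Proteins that work with the carriers were read from lists of named genes. The carrier import machinery delivers carriers to the inner membrane. The list held outer membrane receptors and their pore, small Tim chaperones and subunits of the inner membrane translocase. It had 12 tested members with a median change of -0.36. Over all genes the median was -0.13. At the study thresholds 2 were lower and 0 higher (16.7%, against 13.8% of all genes). Timm8a1, a small Tim chaperone, had 8.80, 9.10 and 9.60 in Runx3-/-, against 9.74, 10.43 and 10.26 in WT, with no overlap (1.97-fold lower, limma adjusted p = 0.180). Timm29, a subunit of the carrier translocase, had 9.91, 9.71 and 10.03, against 10.26, 10.56 and 10.62 in WT, also without overlap (1.51-fold lower, adjusted p = 0.229). It missed the thresholds with arrays centred on their medians (-0.48), with quantile normalization (-0.49) and without Runx3-/- replicate 2 (-0.51), WT replicate 2 (-0.56) or WT replicate 3 (-0.53). The change was larger with the mean of its probe sets (-0.76) and with its most variable probe set (-0.92).

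No other partner list had a member at the thresholds. One was the list of genes for heme and iron-sulfur synthesis, Tfrc and Abcb10 included (0 of 14, median -0.33). It had 13 negative changes (92.9%, against 62.2% of all genes). The others were the pyruvate carrier, porins, sideroflexins and calcium uniporter (0 of 12, median -0.09), the malate-aspartate shuttle enzymes (0 of 4, median -0.22), the acylcarnitine shuttle enzymes (0 of 3, median -0.49) and the family members Mtch1 and Mtch2 (0 of 2, median -0.10). Cpt2, which reforms acyl-CoA in the matrix, had the only unadjusted limma p under 0.05 in all of these lists. It read 9.32, 8.70 and 8.95 in Runx3-/-, against 9.46, 9.46 and 9.77 in WT (change -0.57, adjusted p = 0.294). A high share of negative changes was not particular to the heme list. It was 91.7% for the import machinery, and 100% for both shuttle lists and for Mtch1 with Mtch2. For the list with the pyruvate carrier and porins it was 66.7%. These shares are of the deposited values and were not computed with arrays centred on their medians.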

How the data were processed

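Expression was measured in resting splenic NKC, 3 Runx3-/- and 3 WT samples, on Affymetrix mouse arrays. With Partek and GCRMA, named without versions in the submitters' processing notes, the authors made and deposited log2 values of 45101 probe sets, the only values used; 0 columns of per-sample values were left out. The labels and the methods name different labelling kits. Precision is limited by having 3 arrays a group. Of the probe sets, 34945 had 1 symbol in the platform annotation, 932 several and 9160 none. All 44 carriers matched RefSeq genes of GRCm38.p6, which also gave the promoter windows; no build is named for the array.

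Differences between Runx3-/- and WT were fitted in R 4.3.3 with limma 3.58.1 (lmFit, eBayes without trend), with no covariate and Benjamini-Hochberg adjustment over 9545 genes. The study names no exact test and no background level, so limma and log2 5 were used. The fit was tested on simulated data. Values on every array were given for carriers at the study thresholds or with an unadjusted p under 0.05, the ADP/ATP, phosphate, aspartate/glutamate, pyrimidine nucleotide and iron carriers, carriers with discordant probe sets, and up to 3 members of a partner list at the thresholds; other carriers named with values were chosen after those were seen. The carriers and lists were chosen with earlier results of these data known, and the pair contrasts and the motif search were added after the carriers' values had been seen, as were the alternatives for the pairs, Timm8a1 and Timm29. Replicates were separate samples. The limma SE and p-values combine a gene's spread between them with the typical spread of all tested genes. For Slc25a36, a change of 0.54 had an SE of 0.19, but 0.08 with no filter on low values (limma adjusted p = 0.131). Alternatives changed the filter, normalization, probe set choice, moderation and weights, added a replicate block, or left out each array.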

Additional observations from a re-analysis of the deposited data

How the results depend on the processing

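No carrier passed an adjusted p under 0.05 (limma) in any of 18 alternatives; the smallest was 0.0553, for Slc25a15 without WT replicate 1. The number of all genes that did, 58, was 1 with no filter on low values, 37 with values under log2 5 raised to 5, 12 with the mean of all probe sets (which left 28 carriers to test), 11 with the most variable probe set, 203 with array weights, 0 with the replicate block, and 0 to 127 when 1 array was left out (127 without WT replicate 1). Genes lower at the study thresholds, 846, were 498 with arrays centred on their medians (627 higher) and 552 to 1214 with 1 array left out (552 without WT replicate 3). Centring moved the median of all genes from -0.13 to -0.01, and that of the carriers to -0.05. Carriers lower at the thresholds, 3, were 1 with the mean of all probe sets, 5 with array weights and 0 to 5 with 1 array left out; carriers higher, 0, were 1 with median centring, with quantile normalization (Slc25a36 in both) and with array weights (Slc25a27), and 0 to 2 with 1 array left out. Slc25a33 met the thresholds in 15 of 18 alternatives (changes of -1.02 to -0.63), Slc25a15 in 13 (-1.43 to -0.55), Slc25a4 in 8 (-0.81 to -0.44) and Slc25a36 in 3 (0.25 to 0.66). Slc25a4 minus Slc25a5 shifted by -0.27 with the most variable probe set. Slc25a27 passed the filter only through Runx3-/- arrays, so its calls are not read as a rise.

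Small changes turned in sign. With median centring Slc25a5 and Slc25a25 were at 0.00 and Slc25a46 at 0.08, and with quantile normalization Slc25a46 was at 0.07. With the mean of all probe sets Slc25a3 was at 0.24, Slc25a12 at 0.01 and Slc25a46 at 0.01. With the most variable probe set Slc25a12 was at 0.58, Slc25a39 at -0.01, Slc25a46 at 0.06 and Slc25a51 at 0.04. Slc25a39 was at -0.01 with array weights and ranged from -0.10 to 0.18 with 1 array left out. The Slc25a3 mean took in a probe set under log2 5 on all arrays. Both Slc25a12 values drew on a probe set that reached log2 5 on only 3 of 6 arrays. Why the signs turned elsewhere was not tested. Of 250 values for 14 named carriers, 214 kept their direction and side of the thresholds.

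The shared replicate numbers showed no clear pairing of the arrays (correlations of deviations 0.07, -0.19 and 0.15), and 1 of 3 numbers correlated best with its own. Deviations from the mean of only 3 arrays are tied to each other, so this check cannot exclude a pairing. With the replicate block 2 carriers were lower, Slc25a15 and Slc25a33, and Slc25a4 was not, with the same change of -0.60 and a larger SE of 0.28 (limma adjusted p = 0.383).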

Other observations

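One further probe set carries the symbol of a carrier together with another gene, Gm16867 and Slc25a37, and so was outside the definition. It read 2.10, 2.08 and 2.18 in Runx3-/- NKC, against 2.14, 2.15 and 2.15 in WT, under log2 5 on all 6 arrays.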
